A study of Mus musculus with 16 samples.

Results

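The transcripts of the integrin subunit Itgb3 and of 8 subunits related to it by pairing or by family were measured in the cortex of 5xFAD mice fed rapamycin or vehicle. The 9 members were taken by gene symbol from the deposited table of 47593 genes, and all 9 were found and passed the filter on low counts. They are the beta subunits Itgb3, Itgb1, Itgb5, Itgb8 and Itgb2 and the alpha subunits Itgav, Itga2b, Itga5 and Itgam.

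All 16 libraries came from 5xFAD mice, a strain in which the neuron-specific Thy-1 promoter drives mutant human amyloid precursor protein (with the Swedish, Florida and London mutations) together with mutant presenilin-1, so that amyloid plaques form early. The mice were heterozygous on a hybrid of C57BL/6 and SJL, and libraries without the transgenes were not analysed here, so every comparison lies within this background. Females and males received a rapamycin diet or a vehicle diet from 2 months of age until 5 months, and 4 libraries were made for each of female vehicle (FC), female rapamycin (FR), male vehicle (MC) and male rapamycin (MR). Poly(A) RNA of cortical tissue was sequenced in pairs, and the labels give 2 batches, of 11 libraries (batch 1) and 5 libraries (batch 2), without saying what a batch is.

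Integrins are receptors of the cell surface made of 1 alpha and 1 beta chain, and they link proteins outside the cell to the actin cytoskeleton. Which chains pair decides what is bound. Itgav with Itgb3 binds vitronectin and fibronectin, Itga2b with Itgb3 is the fibrinogen receptor of platelets, Itgav with Itgb5 takes part in the uptake of dying cells, Itgav with Itgb8 activates latent TGF-beta, Itga5 with Itgb1 is the classical fibronectin receptor, and Itgam with Itgb2 is complement receptor 3, known as CD11b and CD18 and used as a marker of microglia in brain tissue.

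The beta chains recruit talin and kindlin inside the cell through short motifs in their cytoplasmic tails. The last 150 coding bases of each beta subunit, ending in the stop codon, are shown because they set Itgb8 apart from the other members. They were read from the GENCODE M21 transcripts (GRCm38) that carry the principal isoform tag, 5′ to 3′ along the gene's own strand, and capitals mark the codons of each motif in which asparagine is followed by tyrosine or phenylalanine at the 3rd residue after it (NPxY, NPxF or NxxY).
Itgb3: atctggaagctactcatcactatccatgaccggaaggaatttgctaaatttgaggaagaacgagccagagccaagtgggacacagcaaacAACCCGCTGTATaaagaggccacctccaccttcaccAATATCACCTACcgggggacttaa
Itgb5: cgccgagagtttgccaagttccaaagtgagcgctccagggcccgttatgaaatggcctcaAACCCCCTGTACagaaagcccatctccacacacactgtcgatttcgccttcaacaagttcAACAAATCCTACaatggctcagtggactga
Itgb1: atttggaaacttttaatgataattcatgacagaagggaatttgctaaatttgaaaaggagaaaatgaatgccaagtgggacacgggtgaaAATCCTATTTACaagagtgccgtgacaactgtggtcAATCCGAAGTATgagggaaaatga
Itgb2: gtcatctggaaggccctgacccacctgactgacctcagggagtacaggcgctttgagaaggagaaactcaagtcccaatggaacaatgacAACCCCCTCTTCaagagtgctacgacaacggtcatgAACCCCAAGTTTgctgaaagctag
Itgb8: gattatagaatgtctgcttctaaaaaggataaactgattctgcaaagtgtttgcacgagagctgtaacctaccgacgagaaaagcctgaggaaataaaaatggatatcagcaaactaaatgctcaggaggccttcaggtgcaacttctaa
The stretches of Itgb3 and Itgb5 each hold 2 motifs, an NPxY followed by an NxxY. Itgb1 holds 2 NPxY motifs and Itgb2 holds 2 NPxF motifs. The stretch of Itgb8 holds 0 matches, which says only that these letters are not in this window. Each stretch lies in 2 coding exons, on the plus strand at chr11:104665549-104667145 for Itgb3, chr16:33947828-33948752 for Itgb5, chr8:128726103-128732088 for Itgb1 and chr10:77564718-77565240 for Itgb2, and on the minus strand at chr12:119163117-119163363 for Itgb8. The codons of GFFKR, the motif next to the membrane that alpha chains share, were found near the end of all 4 alpha subunits.

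Each library held between 16393501 and 20593089 read pairs on genes, with a median of 17656717.5. The library labelled male rapamycin 4 held 9935 read pairs of Xist and 0 of Y-linked genes and so went against its labelled sex. Some results are given with and without it, and the others, such as the interaction of sex and diet, include it in its labelled group. The choroid plexus list summed to 2002 CPM in male vehicle 4 and to between 16.5 and 332.2 CPM in the other 15 libraries. The exon length slope, which says how far a library's long genes lie above its short ones (in log2 CPM per log2 of exon length), ranged from 0.000395 to 0.1 in vehicle libraries and from -0.127 to 0.064 in rapamycin libraries. The share of mitochondrially encoded reads ranged from 2.64% to 5.47% in vehicle and from 3.75% to 6.99% in rapamycin libraries. The medians for vehicle and rapamycin were 0.0255 and -0.0244 for the slope, and 3.74% and 4.88% for the mitochondrial share. Both properties therefore differed between the diets in their medians, while their ranges overlapped, and no test was made of either. Since the tissue was sequenced in bulk, fewer cells of a type and less RNA per cell cannot be told apart.

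Counts were spread over the exons of genes that differ in length, so levels of different genes were compared as RPKM, that is CPM per kilobase of annotated exon. Itgb5 had the highest mean level, 24.9 RPKM ± 4.78 (SD, n = 16 libraries), followed by Itgb1 at 15.2 ± 1.09 RPKM and Itgav at 8.36 ± 1.81 RPKM. Itgb8 at 5.21 ± 1.29, Itgb2 at 4.56 ± 1.38 and Itgam at 4.44 ± 1.07 RPKM lay close together. Itgb3 had a mean of 1.04 ± 0.279 RPKM, Itga5 of 0.989 ± 0.239 and Itga2b of 0.531 ± 0.131 RPKM.

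Several neighbours in this order were not separated. Itgb8 was above Itgb2 in 11 of 16 libraries, Itgb2 was above Itgam in 8 of 16, and Itgb3 was above Itga5 in 9 of 16. Itgb5 was above Itgb1 in 15 of 16, Itga5 was above Itga2b in 15 of 16, and the steps from Itgb1 to Itgav, from Itgav to Itgb8 and from Itgam to Itgb3 had the same order in all 16 libraries. Per length, Itgb5 stood at a median of 24.8 times Itgb3 (range 13 to 42.5 over libraries), Itgb1 at 14.8 times (9.28 to 21.1) and Itgav at 8.04 times (5.77 to 14.1).

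**Figure D1:**
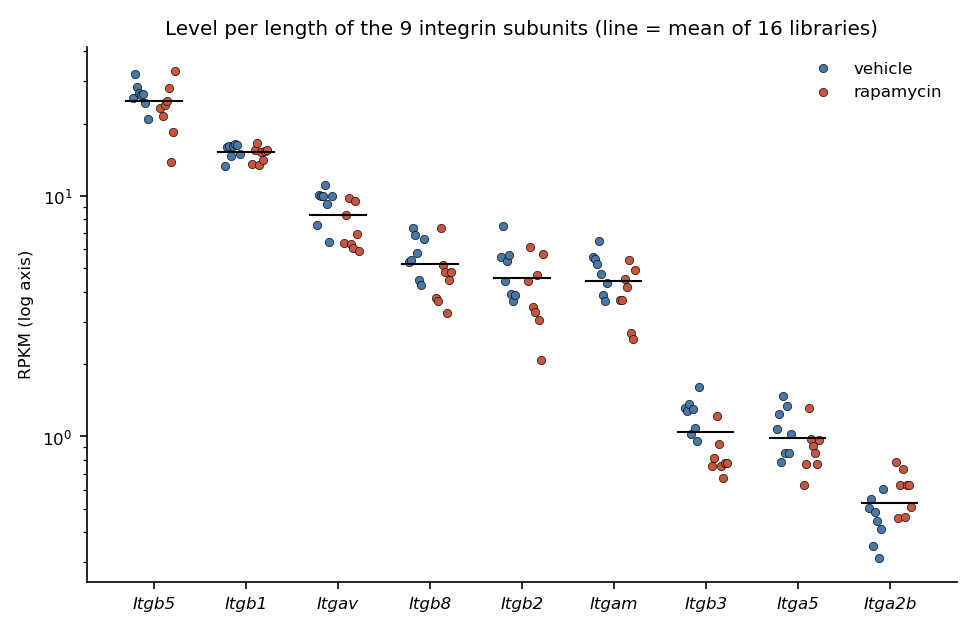
Level per exon length (RPKM, log axis) of the 9 integrin subunits, ordered by their mean, with 1 point per library, vehicle in blue and rapamycin in red, and a line at the mean of 16 libraries. Itgb5 lies highest at a mean of 24.9 RPKM and Itga2b lowest at 0.531, and the points of Itgb3 and Itga5 cover the same range near 1 RPKM.

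Itgb3 lies on the plus strand at chr11:104608000-104670476 (GRCm38) and its annotated exons add up to 5901 bases. It encodes the chain shared by the vitronectin receptor and the platelet fibrinogen receptor. In FC mice its level was 7.72, 7.52, 8.05 and 6.01 CPM in replicates 1, 2, 3 and 4, and in FR mice it was 4.44, 4.79, 7.19 and 5.50 CPM in replicates 1, 2, 4 and 5. In MC mice it was 7.67, 6.41, 5.65 and 9.51 CPM, and in MR mice it was 4.46, 3.97, 4.59 and 4.58 CPM. In the groups labelled male every rapamycin library, including the one that went against its labelled sex, lay below every vehicle library. In females the rapamycin replicate 4 lay within the vehicle range. The share of all genes without overlap between the diets is not given, here or for the other members. Over both sexes, 8 of 8 rapamycin libraries were below the vehicle median and 7 of 8 were below the lowest vehicle library.

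The first comparison asked whether the diet changed each transcript over both sexes, with sex and batch as terms of edgeR's quasi-likelihood test. Itgb3 fell to 0.655 times its vehicle level, from 7.32 ± 1.25 to 4.94 ± 1.01 CPM (SD, n = 8 libraries each), a log2 fold change of -0.61 with an SE of 0.13 and an adjusted p of 0.0133. It was the 1 member that also passed the fold threshold of 1.5, which 2.26% of all genes tested did. Of the 9 members 2 passed an adjusted p under 0.05, Itgb3 and Itgb8, both lower with rapamycin. Among the 16553 genes tested 13.3% passed, made up of 6.86% that were lower and 6.46% that were higher. The median log2 fold change of the members was -0.32 against 0.02 over all genes tested. A negative value was found for 8 of 9 members, beside 7902 of the 16553 genes tested. At an unadjusted p under 0.05 there were 5 members, and 30.4% of all genes. The study itself names Itgb3 among the genes lowered by rapamycin in these data. Comparisons of the members with all genes are therefore not independent of how the members were chosen.

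The call for Itgb3 was kept when any 1 library was left out, with adjusted p between 0.0037 and 0.0376 and log2 fold changes between -0.71 and -0.52, and the fold threshold was passed in 13 of these 16 fits. Without the library labelled male rapamycin 4 it was -0.58 (adjusted p = 0.0241), and without male vehicle 4, where Itgb3 and the choroid plexus list were both highest, it was -0.52 (adjusted p = 0.0375). The call was lost with the exon length slope of the library as a covariate, at -0.42 with an SE of 0.19 (adjusted p = 0.844), and with the mitochondrial share as a covariate, at -0.51 with an SE of 0.20 (adjusted p = 0.684), in fits that called 0 genes of all tested. Without the batch term it was -0.57 (adjusted p = 0.0575), and with the exon length trend removed by offsets -0.52 (adjusted p = 0.0266). In batch 1 the rapamycin libraries lay below the vehicle libraries without overlap, with a difference of -0.67 in mean log2 CPM (5 against 6 libraries). In batch 2 the difference was -0.41 (3 against 2), or -0.26 (2 against 2) without the library labelled male rapamycin 4. The diets overlapped in batch 2. Female vehicle 4 was at 6.01 and male vehicle 4 at 9.51 CPM. Female rapamycin 4 and 5 were at 7.19 and 5.50 CPM, and the library labelled male rapamycin 4 was at 4.58 CPM. Between 67 and 170 read pairs per library stood behind these values, so that counting alone gives a coefficient of variation of 8.67% in vehicle and 10.5% in rapamycin libraries, where 17.1% and 20.4% were observed. Such counting error covers sampling of reads only.

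**Figure D2:**
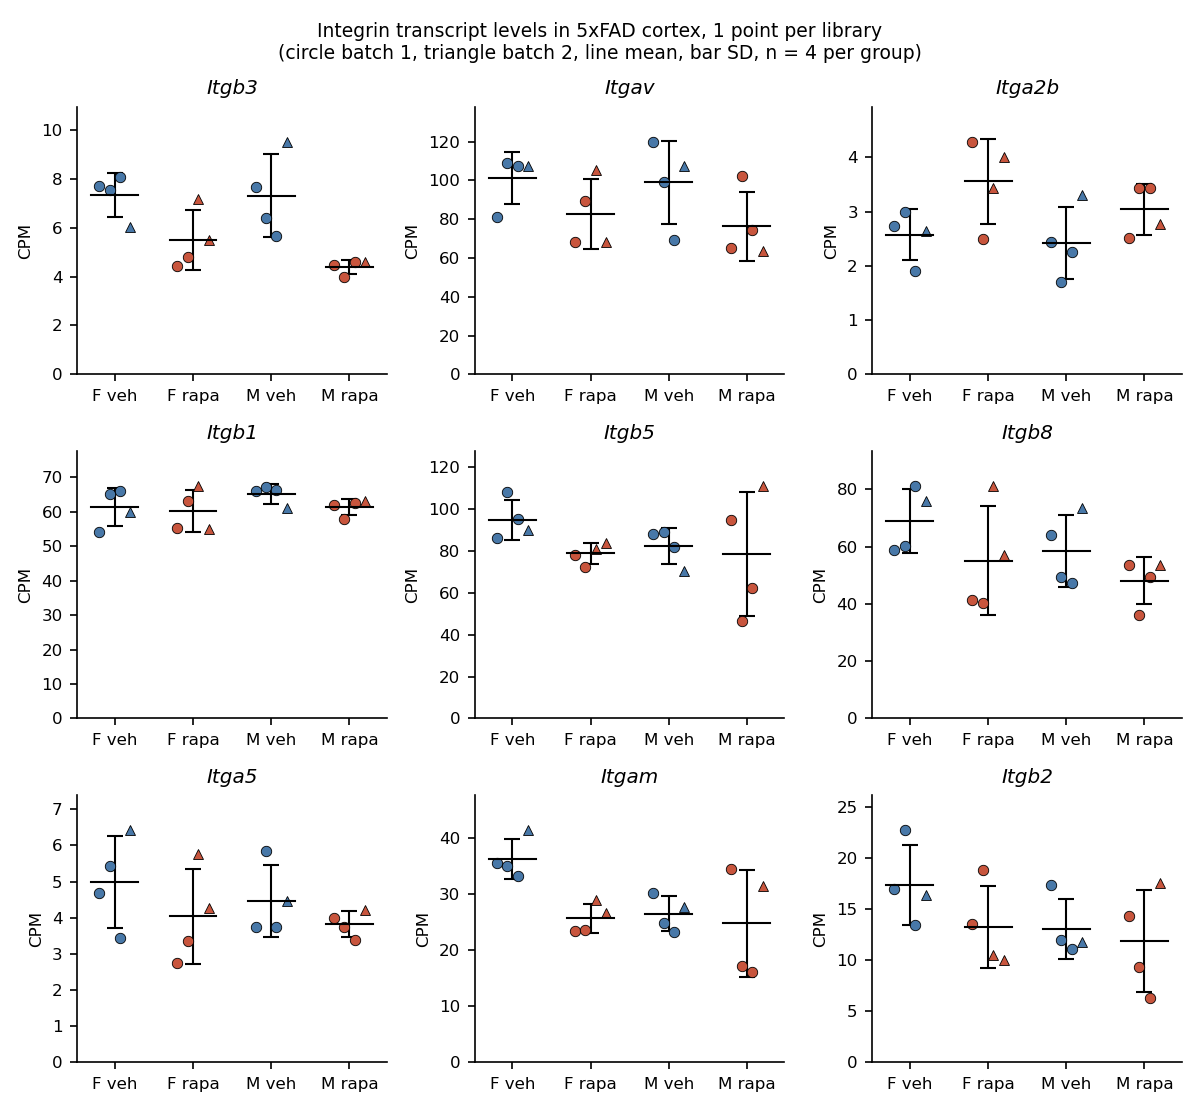
CPM of each of the 9 subunits in the 4 groups, with 1 point per library (circles batch 1, triangles batch 2, blue vehicle, red rapamycin), a line at the group mean and a bar of 1 SD (n = 4). For Itgb3 the 4 libraries labelled male rapamycin sit between 3.97 and 4.59 CPM, below all 4 male vehicle libraries. The library that goes against its labelled sex is among these 4. In females 1 rapamycin library reaches 7.19 CPM.

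**Figure D3:**
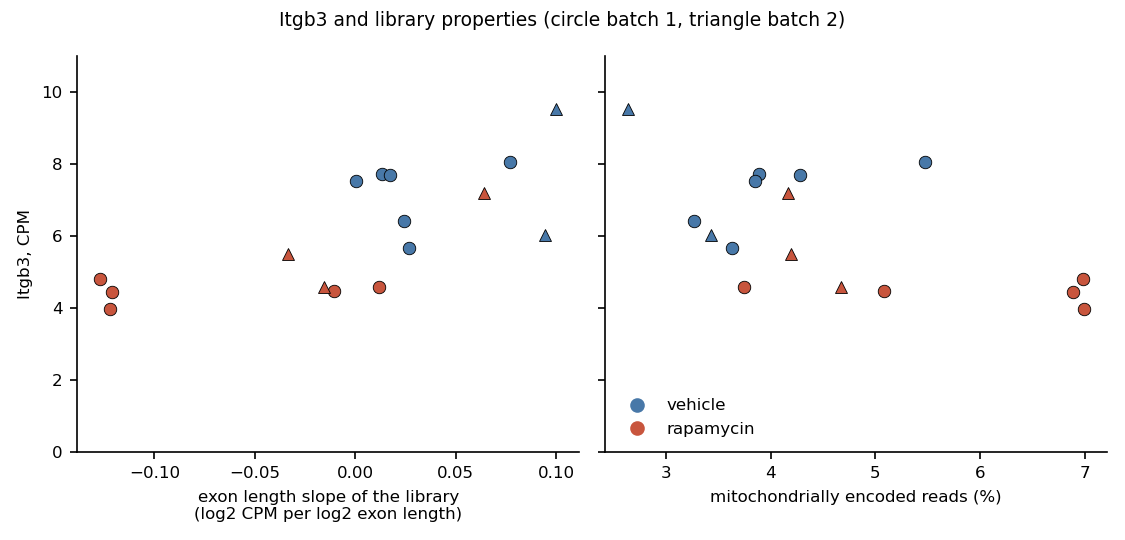
Itgb3 in CPM against the exon length slope of each library (left) and its percentage of mitochondrially encoded reads (right), with 1 point per library, blue vehicle, red rapamycin, circles batch 1 and triangles batch 2. The 3 rapamycin libraries with slopes of -0.121, -0.127 and -0.122 also hold 6.88%, 6.98% and 6.99% mitochondrial reads and lie at 4.44, 4.79 and 3.97 CPM of Itgb3.

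Itgb8, the other beta chain that passed, lies on the minus strand at chr12:119158022-119238802 with 11060 exon bases and is the chain whose window above holds no match. Its level was 58.7, 60.2, 81.2 and 75.9 CPM in FC and 41.5, 40.4, 81.3 and 57.0 CPM in FR mice, and 64.0, 49.3, 47.3 and 73.5 CPM in MC and 53.6, 36.2, 49.5 and 53.5 CPM in MR mice. The groups overlapped in both sexes, and female rapamycin 4 was the highest of all 16 libraries. Over both sexes Itgb8 fell by 0.37 on the log2 scale (SE 0.12, adjusted p = 0.0462), to 0.775 times the vehicle level. This call was kept in 4 of the 16 fits that left out 1 library (female rapamycin 4, male vehicle 3, male rapamycin 1 or male rapamycin 3) and lost in the other 12, with adjusted p from 0.0132 to 0.112 over all 16, and without the library labelled male rapamycin 4 it was lost (log2 fold change -0.35, adjusted p = 0.0711). With the exon length slope as a covariate the estimate was 0.08 with an SE of 0.11, opposite in sign.

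Itgb8 was also the 1 member that passed in the comparison of batches, in which 35.5% of all genes did, 19.1% of all genes being higher in batch 2. At an unadjusted p under 0.05 there were 2 members, Itgb8 and Itga5, against 45.1% of all genes. Itgb8 was higher in batch 2, at 68.2 ± 12.3 CPM (n = 5), than in batch 1, at 52.9 ± 12.8 CPM (n = 11), a log2 difference of 0.41 with an SE of 0.13 and an adjusted p of 0.018. Without female rapamycin 4 Itgb8 did not pass (0.32, adjusted p = 0.0638). Itgb3 passed the batch comparison without female vehicle 4 (0.38, adjusted p = 0.0401) and Itgam without male rapamycin 1 (0.35, adjusted p = 0.0176), in fits where 25.4% and 36.3% of all genes did. Within batches the Itgb8 rapamycin minus vehicle difference in mean log2 CPM was -0.43 in batch 1 and -0.25 in batch 2, or -0.13 in batch 2 without the library labelled male rapamycin 4.

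Itgav, the alpha chain that pairs with Itgb3, Itgb5, Itgb8 and Itgb1, lies at chr2:83724397-83806916 on the plus strand with 10744 exon bases. It measured 81.1, 108.9, 107.7 and 107.3 CPM in FC, 68.3, 89.3, 105.5 and 68.1 CPM in FR, 119.9, 99.3, 69.5 and 107.3 CPM in MC and 65.2, 102.2, 74.3 and 63.5 CPM in MR mice. All 8 rapamycin libraries were below the vehicle median, yet the groups overlapped in each sex. The log2 fold change was -0.34 with an SE of 0.13 and did not pass (adjusted p = 0.0924). It passed without female rapamycin 4 (-0.40, adjusted p = 0.0383), in a fit where 3352 of 16727 genes did. Reads were counted without regard to strand, and 634 exon bases of Itgav are shared with the antisense gene Gm13684, which itself had a mean of 0.0341 CPM.

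Itga2b, the platelet partner of Itgb3, was the 1 member with a positive estimate. It lies at chr11:102453297-102470122 on the minus strand with 5454 exon bases, on the same chromosome as Itgb3. Its level was 2.74, 3.00, 1.90 and 2.65 CPM in FC, 4.29, 2.50, 3.43 and 4.01 CPM in FR, 2.44, 1.70, 2.25 and 3.30 CPM in MC and 2.52, 3.44, 3.44 and 2.78 CPM in MR mice, from 34 to 84 read pairs per library. The groups overlapped in both sexes. The log2 fold change over both sexes was 0.38 with an SE of 0.17 (adjusted p = 0.13). Of the 10 platelet and megakaryocyte markers 5 were abundant enough to be tested and 0 passed, beside 13.3% of all genes. The platelet collagen receptor Gp6 had no read in any of 16 libraries, and Ppbp, a platelet chemokine, averaged 0.0211 CPM. The whole list summed to between 10.9 and 16.7 CPM in vehicle and between 10.9 and 23.1 CPM in rapamycin libraries, most of it from Gp1bb with a mean of 11.7 CPM.

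Itgb5, the most abundant member, lies at chr16:33829665-33949153 on the plus strand with 3362 exon bases. It measured 86.3, 108, 95.4 and 89.8 CPM in FC and 78.2, 72.4, 80.7 and 83.7 CPM in FR mice, and the 2 female groups did not overlap. In MC mice it was 88.2, 89.0, 82.0 and 70.5 CPM, and in MR mice it spread from 46.5 to 111 CPM, the latter in the library labelled male rapamycin 4. The log2 fold change was -0.19 with an SE of 0.14 over both sexes (adjusted p = 0.357), and without that library it was -0.27 with an SE of 0.12 (adjusted p = 0.132). The difference in mean log2 CPM was -0.40 in batch 1 and 0.19 in batch 2. Without that library, left out after the data were seen, the batch 2 difference was 0.05 (2 against 2 libraries).

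Itgb1, the common partner of most alpha chains, lies at chr8:128685654-128733200 on the plus strand with 4081 exon bases and varied least. It ranged from 54.2 to 67.3 CPM (median 65.5) in vehicle and from 55.1 to 67.5 CPM (median 62.4) in rapamycin libraries, with coefficients of variation of 7.13% and 7.14%. Its log2 fold change was -0.05 with an SE of 0.07 (adjusted p = 0.616). Its partner Itga5, at chr15:103344289-103366763 on the minus strand with 4379 exon bases, ranged from 3.43 to 6.43 CPM (median 4.58) in vehicle and from 2.76 to 5.75 CPM (median 3.87) in rapamycin libraries. The log2 fold change of Itga5 was -0.32 with an SE of 0.15 (adjusted p = 0.165).

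Itgam and Itgb2 encode the 2 chains of complement receptor 3. Itgam lies at chr7:128062640-128128160 and Itgb2 at chr10:77530252-77565708, both on the plus strand, with 6377 and 3052 exon bases. Itgam measured 35.6, 34.9, 33.3 and 41.4 CPM in FC and 23.5, 23.7, 28.9 and 26.7 CPM in FR mice, so that every female rapamycin library was below every female vehicle library. In males the groups overlapped, with 30.3, 24.8, 23.2 and 27.7 CPM in MC and 34.5, 17.1, 16.2 and 31.4 CPM in MR mice. Over both sexes the log2 fold change of Itgam was -0.33 with an SE of 0.14 (adjusted p = 0.112), and it passed without male rapamycin 1 (-0.49, adjusted p = 0.0117), in a fit where 15.4% of all genes did. Itgam shares 347 exon bases with the gene RP23-144N15.3, which had no read pair.

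Itgb2 measured 16.95, 22.8, 13.5 and 16.4 CPM in FC, 13.6, 18.8, 10.6 and 10.1 CPM in FR, 17.4, 11.96, 11.1 and 11.9 CPM in MC and 14.3, 9.31, 6.34 and 17.6 CPM in MR mice. The groups overlapped in each sex, and the log2 fold change was -0.26 with an SE of 0.19 (adjusted p = 0.396), or -0.39 with an SE of 0.17 (adjusted p = 0.133) without the library labelled male rapamycin 4. Beside these 2 chains, 1 of 10 microglia markers passed, Fcrls, which fell (log2 fold change -0.64, adjusted p = 0.025), and 9 of 10 had a negative estimate. The microglia list summed to between 409 and 720 CPM in vehicle and between 287 and 559 CPM in rapamycin libraries, and none of its markers was at 0 in any library. Of 10 genes of plaque-associated microglia 0 passed and all 10 had a negative estimate. Among all 16553 genes tested 13.3% passed and 7902 had a negative estimate. Relative to the mean log2 CPM of the microglia list, Itgam stood at -0.19 ± 0.27 in vehicle and -0.26 ± 0.26 in rapamycin libraries, and Itgb2 at -1.24 ± 0.24 and -1.30 ± 0.28 (log2, SD, n = 8). With the microglia level as a covariate the estimates were -0.15 for Itgam (adjusted p = 0.386), 0.01 for Itgb2 (adjusted p = 0.98) and -0.62 for Itgb3 (adjusted p = 0.0241). Neither Itgam nor Itgb2 had passed without this covariate. The microglia level itself was 5.15 ± 0.32 in vehicle and 4.88 ± 0.34 in rapamycin libraries (mean log2 CPM, SD, n = 8). Whether it accounts for the members' values was not tested.

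**Figure D4:**
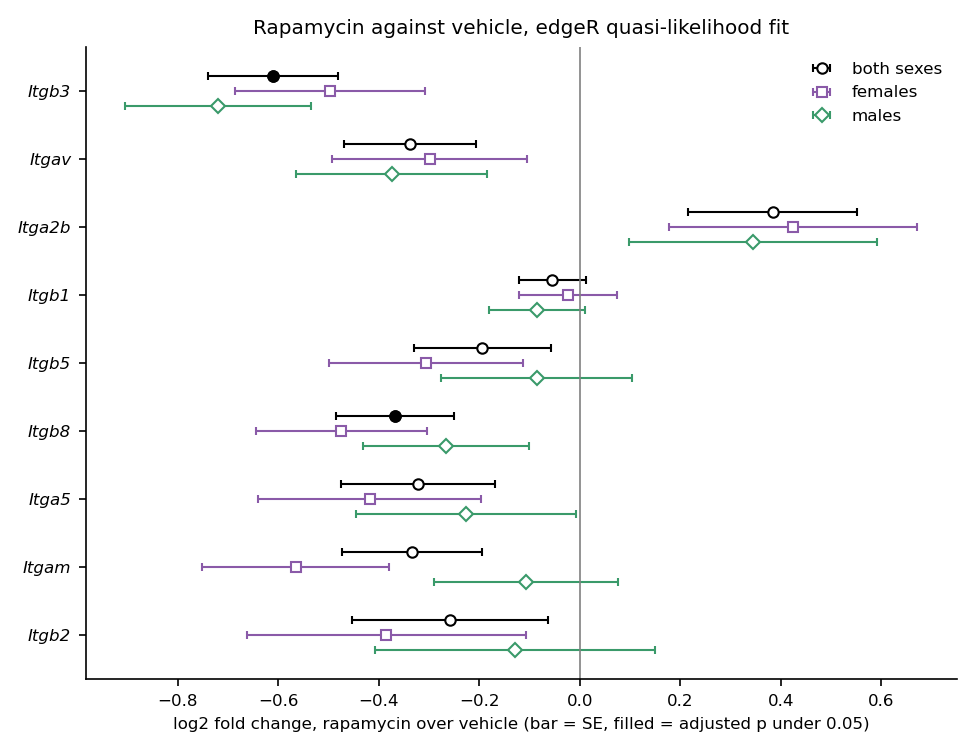
Log2 fold change of rapamycin over vehicle for the 9 subunits in both sexes together (circles), females (squares) and males (diamonds), with bars of 1 SE and filled symbols where the adjusted p was under 0.05. Itgb3 lies farthest below 0 in both sexes together at -0.61, Itga2b is the 1 subunit above 0 at 0.38, and the 2 filled symbols belong to Itgb3 and Itgb8.

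The second comparison took each sex on its own in 1 fit of the 4 groups and batch. In females 0 of 9 members passed, where 0.0121% of all genes did, and this share depended on single libraries, reaching 12.6% once female rapamycin 4 was left out. Leaving out male rapamycin 2 gave 2.74%, male rapamycin 3 gave 1.08% and female vehicle 4 gave 1.39%, and the share was 2.07% when the library against its labelled sex was dropped. In males 0 of 9 members and 0 of all genes did. By unadjusted p under 0.05 there were 3 members in females, against 23.1% of all genes, and 1 in males, against 12% of all genes. DESeq2 called 1 member in females, Itgam (adjusted p = 0.0414), in a fit that called 10.4% of its genes, and without female rapamycin 4 edgeR called Itgb8 there (-0.61, adjusted p = 0.021) among the 12.6% of all genes. Itgb3 had a log2 fold change of -0.50 with an SE of 0.19 in females (adjusted p = 0.129) and of -0.72 with an SE of 0.18 in males (adjusted p = 0.363). Without the library labelled male rapamycin 4 the male value was -0.68 with an SE of 0.21 (adjusted p = 0.703).

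Whether the diet acted differently in the sexes was tested by the interaction term. None of the 9 members passed it by edgeR at an adjusted p under 0.05, none had an unadjusted p under 0.05 (as 2.17% of all genes had), and 0 of all genes passed. For Itgb3 the female change minus the male change was 0.22 with an SE of 0.26 (adjusted p = 0.999). For Itgam it was -0.46 with an SE of 0.26 (adjusted p = 0.999), from -0.57 with an SE of 0.19 in females and -0.11 with an SE of 0.18 in males, so the non-overlap in females alone was not matched by a difference between the sexes that passed. In vehicle mice no member differed between females and males at an adjusted p under 0.05, where 0.0121% of all genes did. At an unadjusted p under 0.05, which 3.55% of all genes had, there was 1 member, Itgam, at 36.3 ± 3.56 CPM in FC and 26.5 ± 3.11 CPM in MC mice (n = 4 each, edgeR adjusted p = 0.999).

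Because Itgav pairs with several beta chains, the level of Itgb3 was also expressed as its share of the RPKM summed over Itgb1, Itgb3, Itgb5, Itgb6 and Itgb8. The share was 2.55% ± 0.522 in vehicle and 1.93% ± 0.332 in rapamycin libraries (SD, n = 8), with ranges of 2.07% to 3.65% and 1.44% to 2.48%. The ranges overlapped, and no test was made of this share. Itgb5 held 53.8% ± 3.21 with vehicle and 52.8% ± 5.96 with rapamycin, Itgb1 held 31.8% ± 2.48 and 34.7% ± 5.28, and Itgb8 held 11.8% ± 2.25 and 10.6% ± 2.06. Itgb6, an epithelial chain, was at 0 in 11 of 16 libraries.

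Over the 16 libraries, with the mean of each batch removed from log2 CPM, the members followed each other to different degrees. The values share library, depth and diet, and they are given as a description. Itgb3 had Pearson's r of 0.81 with Itgb8, 0.64 with Itgav, 0.49 with Itgam, 0.40 with Itga5, 0.33 with Itgb5, 0.30 with Itgb1, 0.29 with Itgb2 and -0.38 with Itga2b. Itgam had r of 0.80 with Itgb5 and 0.79 with Itgb2. Itga2b had negative values with every other member, from -0.62 with Itgb1 to -0.29 with Itgav. After diet and sex were removed as well, Itgb3 kept r of 0.62 with Itgb8 and 0.38 with Itgav, and that with Itgam was -0.02.

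The genes most like Itgb3 by the same measure, among the 14690 tested genes that averaged 1 CPM or more, were Etv1 (r = 0.918), Smad9 (0.904), Secisbp2l (0.894), Ptchd1 (0.889), Nrg1 (0.884), Map3k15 (0.876), Dnm3 (0.875) and Pcm1 (0.872). Etv1 is a transcription factor found in neurons of cortical layer 5, Smad9 a signal carrier of bone morphogenetic proteins, Nrg1 a ligand of ErbB receptors, Dnm3 a dynamin and Pcm1 a protein of centriolar satellites. Itgb8 ranked 90th of these genes. All 8 were lower with rapamycin at an adjusted p under 0.05, as 6.86% of all genes were, with log2 fold changes from -0.89 for Ptchd1 to -0.36 for Secisbp2l. Since the diet is among the things the libraries share, these calls are not independent of the likeness. After diet and sex were removed as well, Etv1 ranked 2nd, Map3k15 6th and Smad9 12th. Secisbp2l, Pcm1, Nrg1 and Dnm3 then ranked 62nd to 85th, and Ptchd1 132nd.

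The other integrin subunits, 17 genes, gave 13 that could be tested and 0 that passed, with 3 at an unadjusted p under 0.05 and a median log2 fold change of -0.01. The 3 with the highest level per length were Itga3 at 4.26, Itga7 at 3.35 and Itga6 at 2.99 RPKM, all laminin receptors, with log2 fold changes of -0.27, -0.01 and -0.27. Itgax, the CD11c chain that also pairs with Itgb2, had a log2 fold change of -0.84 with an SE of 0.28 and did not pass (adjusted p = 0.0524).

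Of 32 integrin ligands 29 were tested, and 1 rose and 1 fell. Thbs1, a matrix protein bound by Itgav with Itgb3, fell by 0.96 on the log2 scale (SE 0.27, adjusted p = 0.0307) from a mean level of 2.48 CPM over all libraries. Hmgb1, a chromatin protein that can be released and bind Itgam with Itgb2, rose by 0.29 (SE 0.08, adjusted p = 0.0319). The ligands with the highest level per length were Thy1 at 1428, Nov at 49.8 and Mfge8 at 39.3 RPKM, with log2 fold changes of -0.16, 0.14 and 0.20, none past the threshold. Vtn, which encodes vitronectin, was 0.15 (adjusted p = 0.5), and Fn1, which encodes fibronectin, was -0.04 (adjusted p = 0.872). The fibrinogen genes Fga and Fgb had no read in any library.

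Of 38 adaptors that bind integrin tails or act with them 37 were tested, and 1 rose while 0 fell. It was Cib1, a calcium-binding protein named for its binding to Itga2b, at a log2 fold change of 0.48 with an SE of 0.12 (adjusted p = 0.0185). The most abundant per length were Ptk2b at 58.9, Rap1b at 35.2 and Crk at 32.5 RPKM, with log2 fold changes of -0.20, 0.09 and -0.19 that did not pass. The talin gene Tln1 had a value of -0.10 (adjusted p = 0.525), Tln2 of -0.34 (adjusted p = 0.077), and the kindlin genes Fermt2 and Fermt3 of 0.08 and 0.09 (adjusted p = 0.559 and 0.689). Across the members, other subunits, ligands and adaptors the shares that passed were therefore 2 of 9, 0 of 13, 2 of 29 and 1 of 37, beside 13.3% of all genes.

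Markers of other cells of the cortex were read from the same fit, in which 13.3% of all genes passed. Of 10 markers each, endothelium had 1 that rose and 1 that fell (Ly6c1 at 0.59 and Kdr at -0.49), astrocytes 2 that rose (Aldoc and Gjb6), and GABAergic neurons, oligodendrocytes, pericytes with smooth muscle, and leptomeninges 0. Choroid plexus had 4 of 10 that fell (Aqp1, Kcnj13, Cldn2 and Slc4a5), from summed levels of 16.5 to 2002 CPM in vehicle and 25.3 to 198.2 CPM in rapamycin libraries. The 2002 CPM was male vehicle 4 alone, and the next highest vehicle library was at 332.2 CPM. Results for these 4 markers without male vehicle 4 are not given. Of 8 markers of oligodendrocyte precursors 0 passed. Of 6 blood markers 5 were tested and 0 passed, and 0 of the 10 markers of neutrophils and monocytes were abundant enough to be tested. The part of these cells, or of microglia, in the members' values was not tested.

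**Figure D5:**
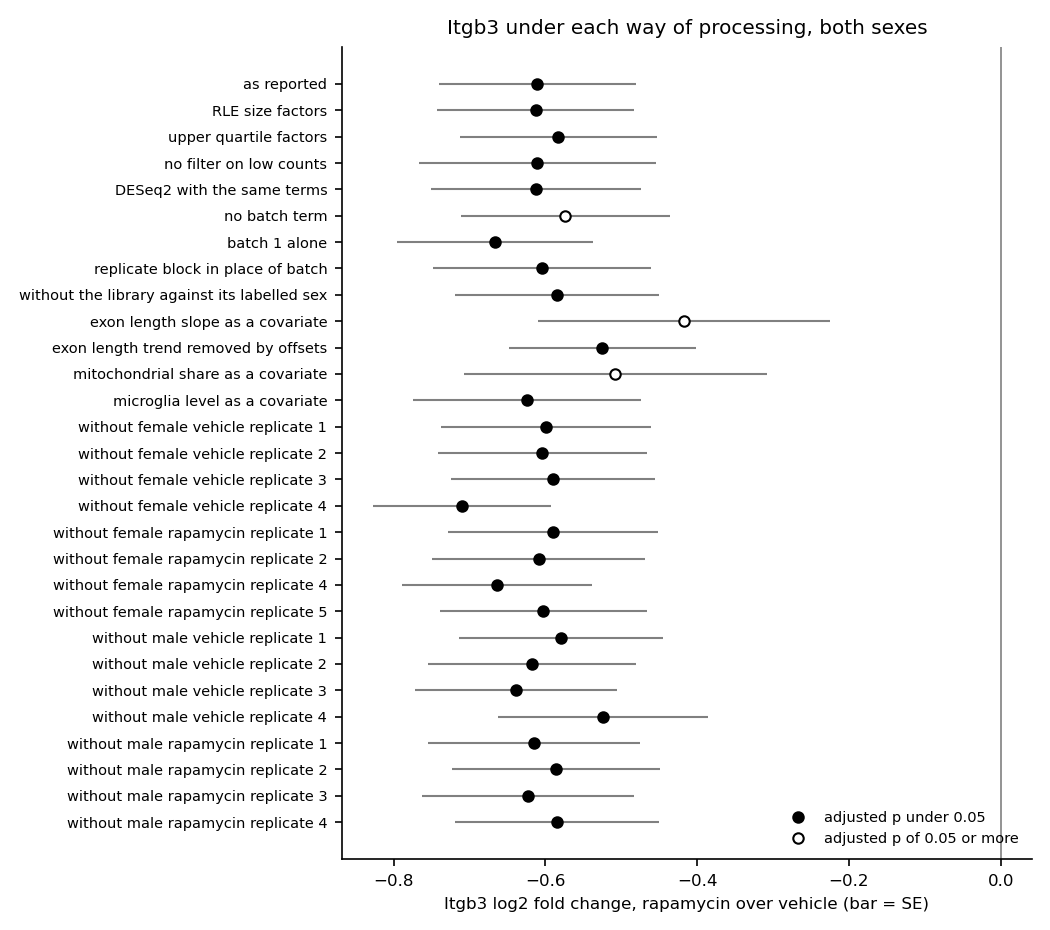
Log2 fold change of Itgb3, rapamycin over vehicle in both sexes, as reported and under 28 other ways of processing, with bars of 1 SE and filled points where the adjusted p was under 0.05. Every point lies below 0, between -0.71 and -0.42, and the 3 open points are the fits without a batch term, with the exon length slope and with the mitochondrial share.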

How the data were processed

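Cortical poly(A) RNA was sequenced as paired reads, and the authors deposited raw counts of read pairs for each gene, made per the labels and file header with FastQC 0.11.9, Trimmomatic 0.39, HISAT2 2.2.1 (GRCm38) and featureCounts 2.0.3 on exons by gene symbol, without strand. The labels also name Trim Galore, without a version. The deposited table gives the exon length of each gene. The same counts stand in 1 table per group, with 0 differing cells, and were not used again.

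Counts were analysed in R 4.3.3 with edgeR 4.0.16 (TMM factors, filterByExpr with a minimum count of 10, quasi-likelihood test) on all genes, and 16553 were tested. The terms were sex, batch and treatment for both sexes, or the 4 groups and batch. P values were adjusted over the whole tested table by the Benjamini-Hochberg method, and DEGs also needed a fold change of 1.5. CPM used the TMM factors, and log2 CPM a prior count of 2. DESeq2 1.42.0, other size factors, filters, terms and offsets, and leaving out each library were alternatives. The exon length slope regresses, within a library, the log2 CPM of genes (each relative to its own mean over libraries) on log2 exon length. Scripts were tested on simulated data, and figures were drawn with matplotlib 3.10.9.

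The members, the 3 lists of other integrin genes and the 14 marker lists were chosen with earlier results of these data known. The result of 1 marker list is not reported here. Named were the members, listed genes that passed, the 3 of each list highest in RPKM, the 8 genes most like Itgb3, and marker genes where a count was 5 or fewer. Itgax, Vtn, Fn1, Fga, Fgb, Tln1, Tln2, Fermt2, Fermt3 and the named platelet genes were added after their values were seen. Groups, sexes and batches came from the labels. The labels call the 4 libraries of a group biological replicates, whereas the study's text gives other sample numbers and speaks of pooled cortical samples. Whether each library is 1 mouse is therefore not settled, and p values measure the spread between libraries.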

Additional observations from a re-analysis of the deposited data

Results flagged for a closer look

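Each subunit was looked at in each group of 4 libraries for 1 library far from the other 3, which makes 36 looks, and chance flags about 1 in 20 of them. Itgav in female vehicle replicate 1 stood at 81.06 CPM, below the other 3 libraries at 107.3 to 108.9 CPM. Itgb2 in male vehicle replicate 1 stood at 17.42 CPM, above the other 3 at 11.13 to 11.96 CPM. No subunit was flagged for a difference between the sexes in its response to the diet, since none passed the interaction test (edgeR, lowest adjusted p of 0.999).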

How the results depend on the processing

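Itgb3 was lower with rapamycin in both sexes together under all 28 alternatives and passed the threshold in 25 of them. Of the 28, 16 left out 1 library each. The fit without male rapamycin 4 is the same as that without the library against its labelled sex, and both are counted. Itgb3 did not pass without the batch term (-0.57, adjusted p = 0.0575), with the exon length slope as a covariate (-0.42, adjusted p = 0.844) or with the mitochondrial share as a covariate (-0.51, adjusted p = 0.684), and the cause was not tested. In females Itgb3 passed in batch 1 alone (-0.75, adjusted p = 0.0434). The number of members that passed in both sexes was 2 as reported, 4 with no filter on low counts, and 0 without the batch term, with the exon length slope and with the mitochondrial share. It was 1 with upper quartile factors, in batch 1 alone, with the exon length trend removed by offsets, with the microglia level as a covariate, and without the library that goes against its labelled sex. Leaving out 1 library at a time gave 1 to 3. The estimate of Itgb8 reversed with the exon length slope as a covariate (0.0755). For the comparison of batches the count was 1 as reported, beside 35.5% of all genes. It was 0 with the slope (12.6%), with the offsets (38.0%) and with the mitochondrial share (7.15%), and 3 with the microglia level (30.3%). Without 1 library it was 0 to 2, beside 25.4% to 36.8% of all genes. In females it was 0 as reported, 2 with no filter, 1 with DESeq2 and 2 in batch 1 alone. These fits called 0.0121%, 5.55%, 10.4% and 7.75% of their genes, in that order. Without 1 library the count in females was 0 to 1, beside 0.00592% to 12.6% of all genes.

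Over all genes the count that passed in both sexes was 2205 as reported, 3086 with DESeq2, 1240 in batch 1 alone, 942 with the length offsets, 142 without the batch term and 0 with the slope or the mitochondrial share. Leaving out FR1 gave 719, FR2 gave 868, MR2 gave 988, MC4 gave 1234, FC3 gave 1383 and FR4 gave 3352 (group letters with the replicate number). The share of Itgb3 among the beta chains was 3.29% in vehicle and 2.53% in rapamycin libraries when plain counts replaced RPKM. With the replicate number as a block in place of batch, Itgb3 was -0.60 (adjusted p = 0.0276) and 1 member passed, beside 7.84% of all genes. Whether the replicate numbers pair the libraries was not settled. The correlations of 21 pairs with the same number ranged from -0.16 to 0.68, and 3 were 0.1 or less. Pairs with different numbers were not measured for comparison. Depth limits Itga2b, Itga5 and Itgb3 most, whose counting error alone is 8.67% to 14.9% of the mean.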
